A study of Rattus norvegicus with 6 samples.

Results

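Phosphatidylcholine and phosphatidylethanolamine are the main phospholipids of cell membranes, and the liver also secretes phosphatidylcholine into bile and on lipoproteins. This account describes 10 genes that make or remodel them, chosen by name as the enzymes of the pathway: Chka, Pcyt1a, Chpt1, Cept1, Pcyt2, Pemt, Ptdss1, Ptdss2, Pisd and Lpcat3. Each of the 10 genes had 1 row among the 32930 gene rows of the table, and all 10 were among the 18455 genes that passed the filter on low counts. None of the 10 genes met an adjusted p under 0.05 in the main test. The clearest difference was in Pcyt1a, which was lower in all 3 HTG libraries than in any HFD library at an adjusted p of 0.0585 in edgeR.

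The samples were liver RNA from 3 animals of the HFD group, given a high-fat diet and the vehicle sodium carboxymethyl cellulose, and 3 animals of the HTG group, given the same diet and HTG. HTG is a herbal formula (Huazhuo Tiaozhi granule), and the treatment label of its libraries spells it HCG. The labels give an intervention of 12 weeks, with no age, strain or dose for these libraries, and no library of animals on a normal diet was used here. The labels name rats and nonalcoholic fatty liver, whereas the paper describes the sequenced livers as those of C57BL/6 J mice. Because the identifiers in the table are Ensembl identifiers of mouse, each row was taken as the mouse gene it names.

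Phosphatidylcholine is made in every nucleated cell by the CDP-choline pathway, in which choline is phosphorylated, activated to CDP-choline and joined to diacylglycerol. A parallel CDP-ethanolamine pathway makes phosphatidylethanolamine. Hepatocytes have a further route, in which PEMT adds methyl groups from S-adenosylmethionine to phosphatidylethanolamine and so turns it into phosphatidylcholine. Phosphatidylserine synthases exchange the head group of either phospholipid for serine, and a mitochondrial decarboxylase turns phosphatidylserine back into phosphatidylethanolamine.

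Estimated counts summed to between 50648778 and 90563477 per library, and the 10 genes held between 437 and 90937 counts in a library. Among low counts, 4 (6450 values) and 8 (3333 values) were more frequent than 3 (2549), 5 (1757) and 7 (1521), so 4 counts were taken as a working value for 1 fragment, although 1 and 2 were also frequent (5104 and 4229). Rows encoded by the mitochondrial genome took 4.97% to 6.45% of the counts in the HFD libraries and 9.31% to 15.2% in the HTG libraries. The summed level of 8 hepatocyte markers was 84223 to 97800 CPM (counts divided by the library total times its TMM factor, as edgeR scales them) in the HFD group and 74683 to 77414 CPM in the HTG group. Most of this sum was Alb, at 57854 to 74503 CPM in the HFD group and 53506 to 55201 CPM in the HTG group. The log2 fold change of Alb was -0.28 (unadjusted p 0.33 in edgeR). Among these markers, Cps1, of the urea cycle, and Tat, of tyrosine breakdown, were lower in the HTG group at unadjusted p-values of 0.000608 and 0.00654 in edgeR, while Apoa2, a lipoprotein component, was higher at 0.0119. The summed ranges of the Kupffer cell and leukocyte markers (533 to 912 CPM in the HFD group, 352 to 649 CPM in the HTG group), endothelial markers (45.0 to 103 and 76.8 to 119), stellate cell markers (132 to 180 and 102 to 156), cholangiocyte markers (85.3 to 106 and 59.5 to 131) and red cell markers (234 to 422 and 258 to 484) overlapped between the groups. The Kupffer cell and leukocyte sum was mostly Cd5l and Clec4f, the stellate sum mostly Dcn and the cholangiocyte sum mostly Spp1. Overlapping sums held single markers that differed. Adgre1, a macrophage receptor, was 21.3, 17.1 and 27.8 CPM in the HFD group but 9.88, 7.26 and 5.76 CPM in the HTG group. Adgre1 had a log2 fold change of -1.53, at an unadjusted p of 0.000334 and an adjusted p of 0.0538 in edgeR (2.9e-05 in DESeq2), and that of Cd5l, a macrophage-secreted protein, was -0.86 at an unadjusted p of 0.0281. The other 6 markers of that list had an unadjusted p above 0.05, and no marker of any list was at or under 12 counts in every library. Stellate markers went both ways by the unadjusted p in edgeR, with Reln lower (0.00865) and Des higher (0.0254). So did cholangiocyte markers, with Epcam lower (0.0312) and Sox9 higher (0.00888). The red cell markers were fitted lower for 3 genes, among them Alas2 (unadjusted p 0.0238 in edgeR), and higher for 2. The 2 were Hba-a1 (log2 fold change 0.86, unadjusted p 0.0593 in edgeR) and Hba-a2 (0.78, 0.0701). No endothelial marker had an unadjusted p under 0.05. The part of the mitochondrial share and of the cell makeup in the results was not tested, and in whole liver fewer cells of a type and less RNA per cell cannot be told apart.

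Levels of different genes were compared by FPKM, which is scaled by transcript length. The order was led in both groups by Pcyt2, the enzyme that activates ethanolamine, followed by Pemt. In the HFD group the mean FPKM was 156 ± 4.65 (SD, n = 3) for Pcyt2 and 109 ± 11.8 for Pemt. Lpcat3 followed at 34.0 ± 7.85, Chpt1 at 19.2 ± 7.54, Cept1 at 15.4 ± 4.68, Ptdss1 at 9.92 ± 2.03 and Pcyt1a at 9.87 ± 0.646. Pisd at 6.72 ± 0.677, Chka at 3.35 ± 0.849 and Ptdss2 at 1.88 ± 0.0651 were the lowest. Adjacent genes from Lpcat3 to Pcyt1a overlapped in their libraries. So did Chpt1 (at least 12.2 FPKM) and Ptdss1 (at most 12.26), which were not adjacent. Some genes further apart did not overlap. All Lpcat3 libraries (26.4 to 42.1 FPKM) lay above those of Cept1 (at most 20.3), and all Chpt1 and Cept1 libraries above those of Pcyt1a (at most 10.5).

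In the HTG group Pcyt2 averaged 202 ± 15.3 FPKM and Pemt 88.2 ± 17.3 (n = 3), again with no overlap between them or with Lpcat3 at 26.3 ± 6.50. Cept1 at 14.1 ± 3.78 and Chpt1 at 11.9 ± 4.47 FPKM overlapped each other. Pisd at 6.55 ± 0.858, Chka at 6.45 ± 3.74, Ptdss1 at 5.66 ± 1.39 and Pcyt1a at 4.66 ± 1.11 FPKM overlapped their neighbours in turn, and Ptdss2 was again the lowest at 1.63 ± 0.180. Pcyt1a, the rate-limiting enzyme of the CDP-choline pathway, thus stood at rank 7 in the HFD group and at rank 9 in the HTG group. Pcyt2 made up 45.1%, 42.5% and 40.8% of the summed FPKM of the 10 genes across HFD libraries 1 to 3, and 50.96%, 58.9% and 55.3% across HTG libraries 1 to 3.

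**Figure D1:**
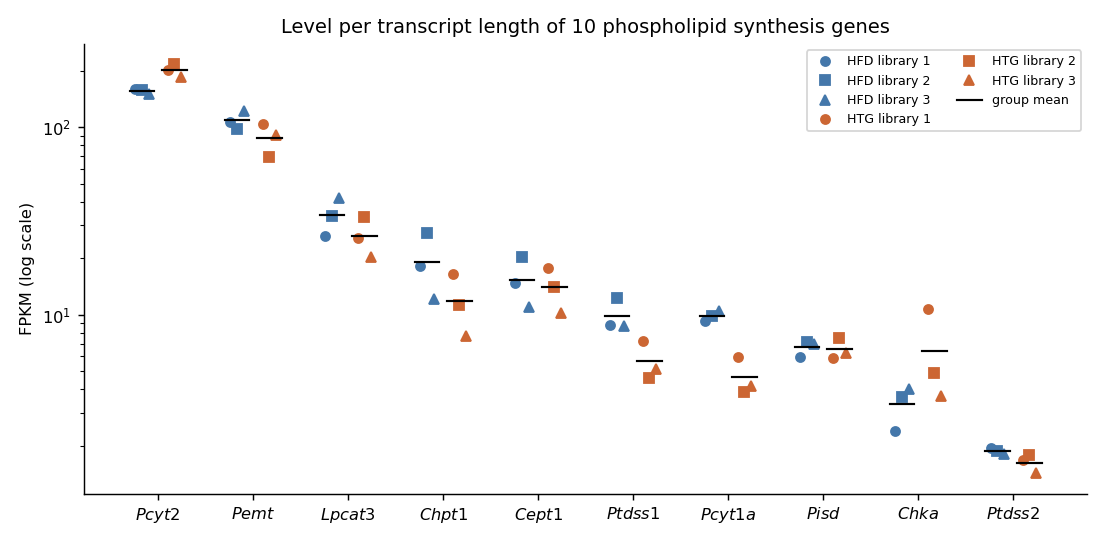
FPKM of the 10 genes (log axis) in each of the 3 HFD and 3 HTG libraries, with bars at the group means. Pcyt2 lies above all other genes in both groups, the HTG points of Pcyt1a (3.88 to 5.93) lie below its HFD points (9.25 to 10.54), and HTG library 1 stands apart for Chka at 10.71.

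The comparison of the HTG with the HFD group asked whether the formula altered liver gene expression under the high-fat diet. At an unadjusted p under 0.05 in edgeR, 1 of the 10 genes was higher in the HTG group (Chka), against 12.3% of all genes tested, and 2 were lower (Pcyt1a and Ptdss1), against 12.4%. These counts were near the background, at which about 1 gene in 10 would be found in each direction. At an adjusted p under 0.05, edgeR called 0 of the 10 genes, against 0.0108% of all genes in either direction. DESeq2, run as an alternative, called 0 of the 10 higher, against 6.29% of all genes, and 2 lower (Pcyt1a and Ptdss1), against 7.55%. The CPM of the groups did not overlap in 2 genes that were higher in the HTG group (Chka and Pcyt2), against 16.5% of all genes, and in 3 that were lower (Pcyt1a, Ptdss1 and Ptdss2), against 15.5%. The fitted difference was below 0 for 8 of the 10 genes, among them Pisd at only -0.0017, and for 8933 of the 18455 genes tested. The median log2 fold change of the 10 genes was -0.20, beside 0.03 over all genes tested. That median was -0.37 without HTG library 1 and -0.12 without HTG library 2.

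**Figure D2:**
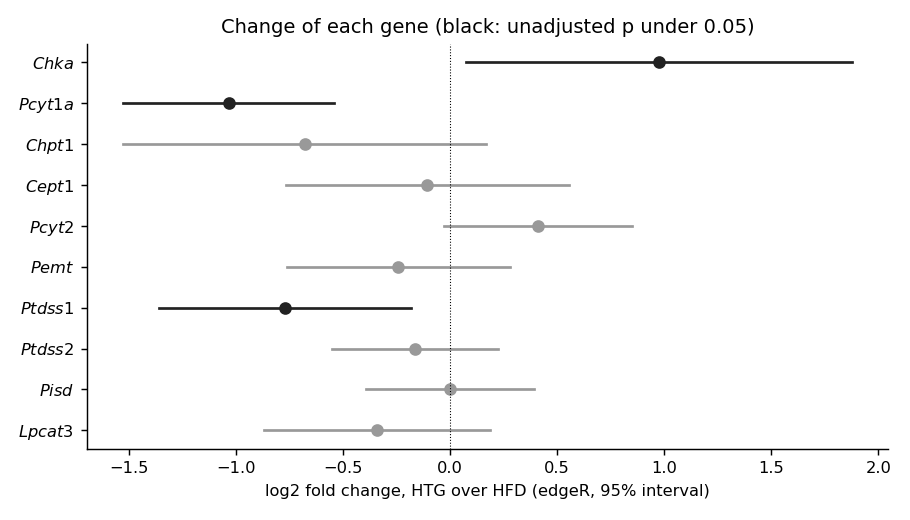
Log2 fold change of each gene, HTG over HFD, with its 95% interval from edgeR (points and horizontal bars; black where the unadjusted p is under 0.05). The intervals of Pcyt1a (-1.53 to -0.54) and Ptdss1 (-1.36 to -0.19) lie below 0, that of Chka (0.07 to 1.88) lies above 0, and the other 7 include 0.

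The first enzyme of the CDP-choline pathway is choline kinase. Chka (ENSMUSG00000024843, chr19:3901773-3944369, plus strand, as the table lists it without naming a build) encodes its alpha form. Its level was 28.9, 48.4 and 48.9 CPM in HFD libraries 1, 2 and 3, against 138, 58.6 and 51.3 CPM in those of the HTG group. HTG library 1 was far above the other HTG libraries, and HTG library 3 was only just above the highest HFD library. In FPKM the groups overlapped, with 2.40, 3.63 and 4.03 in the HFD group and 10.71, 4.92 and 3.71 in the HTG group. The log2 fold change was 0.98 (SE 0.39, 95% interval 0.07 to 1.88), with an unadjusted p of 0.0372 and an adjusted p of 0.173 in edgeR. Without HTG library 1 it was 0.35 with an unadjusted p of 0.219 in edgeR, and the unadjusted p also passed 0.05 without HFD library 1 (0.126), 2 (0.0521) or 3 (0.0533).

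Pcyt1a (ENSMUSG00000005615, chr16:32249739-32293888, plus strand) encodes the alpha form of the enzyme that makes CDP-choline from phosphocholine, the rate-limiting step of the pathway. It measured 68.3, 80.7 and 78.7 CPM in the HFD libraries and 47.2, 28.5 and 35.4 CPM in the HTG libraries. Every HTG library lay below every HFD library, and the same held in FPKM (9.25, 9.83 and 10.54 against 5.93, 3.88 and 4.16). The log2 fold change was -1.04 (SE 0.22, 95% interval -1.53 to -0.54), a fold of 0.488, with an unadjusted p of 0.00119 and an adjusted p of 0.0585 in edgeR. DESeq2 gave an adjusted p of 0.00078. In edgeR the adjusted p was under 0.05 with counts divided by 4 and with at least 10 counts in every library. It stayed above 0.05 in edgeR with no filter, upper-quartile scaling, mitochondrial rows removed or a replicate block. The unadjusted p was under 0.05 in all 17 alternatives, and the log2 fold change lay between -1.29 and -0.88 when each library was left out in turn. With the mitochondrial rows removed it was -1.03.

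The last step, joining the head group to diacylglycerol, is carried out by Chpt1, which uses CDP-choline, and Cept1, which uses CDP-choline and CDP-ethanolamine. Chpt1 (ENSMUSG00000060002, chr10:88288607-88339861, minus strand) measured 151, 250 and 102 CPM in the HFD libraries and 148, 92.7 and 73.8 CPM in the HTG libraries. HFD library 2 was the highest, and the groups overlapped. Its log2 fold change of -0.68 (SE 0.37, interval -1.53 to 0.17) had an unadjusted p of 0.102 and an adjusted p of 0.296 in edgeR, and it was -0.28 without HFD library 2. Leaving out HFD library 3 or HTG library 1 instead gave -0.94 and -1.05, at unadjusted p-values of 0.0309 and 0.0275 in edgeR.

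Cept1 (ENSMUSG00000040774, chr3:106409576-106455118, minus strand) measured 46.1, 70.2 and 34.6 CPM in the HFD libraries and 59.6, 43.5 and 36.8 CPM in the HTG libraries. The groups overlapped over most of their range, and the log2 fold change of -0.11 (SE 0.29, interval -0.77 to 0.55) had an adjusted p of 0.851 in edgeR. Within each group Cept1 and Chpt1 ranked the libraries in the same order, library 2, 1 and 3 in the HFD group and library 1, 2 and 3 in the HTG group. The row of Cept1 overlaps those of Dram2 by 5 bases and Dennd2d by 771 bases on the opposite strand, and no source used here says if reads were counted by strand.

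Pcyt2 (ENSMUSG00000025137, chr11:120500913-120508762, minus strand) encodes the ethanolamine counterpart of Pcyt1a, the enzyme that makes CDP-ethanolamine. It measured 691, 760 and 660 CPM in the HFD libraries and 945, 930 and 928 CPM in the HTG libraries. The HTG libraries were close together and all above the HFD libraries, also in FPKM (159, 158 and 151 against 203, 216 and 186). Its log2 fold change was 0.41 (SE 0.19, interval -0.03 to 0.85), 1.33-fold, with an unadjusted p of 0.0647 and an adjusted p of 0.233 in edgeR. It stayed between 0.36 and 0.46 when each library was left out in turn.

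Pemt (ENSMUSG00000000301, chr11:59861440-59937311, minus strand), the methyltransferase that converts phosphatidylethanolamine to phosphatidylcholine, measured 224, 228 and 257 CPM in the HFD libraries and 234, 145 and 221 CPM in the HTG libraries. HTG library 2 was the lowest, and HTG library 1 lay within the HFD range. Its log2 fold change was -0.24 (SE 0.23, interval -0.76 to 0.28), with an adjusted p of 0.543 in edgeR, and without HTG library 2 it was -0.06.

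Of the phosphatidylserine synthases, Ptdss1 takes phosphatidylcholine and Ptdss2 takes phosphatidylethanolamine as its main substrate. Ptdss1 (ENSMUSG00000021518, chr13:67080894-67146465, plus strand) measured 37.8, 58.3 and 37.6 CPM in the HFD libraries and 33.3, 19.6 and 25.3 CPM in the HTG libraries. All HTG libraries were below the HFD libraries, with HFD library 2 the highest and HTG library 2 the lowest. The log2 fold change was -0.77 (SE 0.26, interval -1.36 to -0.19), a fold of 0.586, with an unadjusted p of 0.016 and an adjusted p of 0.116 in edgeR, and 0.0452 adjusted in DESeq2. The unadjusted p was above 0.05 without HFD library 2 (0.0571, log2 fold change -0.53) or HTG library 2 (0.0579, -0.60). The row of Ptdss1 overlaps that of Mterf3 by 259 bases on the opposite strand.

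Ptdss2 (ENSMUSG00000025495, chr7:140702295-140737519, plus strand) measured 11.0, 11.8 and 10.3 CPM in the HFD libraries and 10.2, 9.96 and 9.33 CPM in the HTG libraries. The groups did not overlap, but only a narrow gap lay between them. The log2 fold change of -0.17 (SE 0.17, interval -0.55 to 0.22) had an adjusted p of 0.578 in edgeR.

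Pisd (ENSMUSG00000023452, chr5:32893645-32942990, minus strand), the mitochondrial enzyme that decarboxylates phosphatidylserine, measured 34.1, 45.7 and 40.8 CPM in the HFD libraries and 36.4, 42.8 and 41.3 CPM in the HTG libraries. The groups overlapped throughout, with a log2 fold change of 0.00 (SE 0.17, interval -0.40 to 0.39) and an adjusted p of 0.996 in edgeR. The table also lists a pair of pseudogene rows that can share reads with Pisd. Pisd-ps1 (chr11:3074000-3081948) measured 134, 112 and 104 CPM in the HFD libraries and 163, 244 and 232 CPM in the HTG libraries, more counts than Pisd itself in every library. Its log2 fold change was 0.87 (SE 0.22), with an unadjusted p of 0.00384 and an adjusted p of 0.0691 in edgeR. Pisd-ps2 (chr17:3126853-3134357) measured 13.1, 10.6 and 11.5 against 13.8, 22.3 and 23.4 CPM, with a log2 fold change of 0.76 and an adjusted p of 0.0978 in edgeR. With the 3 rows summed, an alternative chosen after seeing the data, the values were 181, 168 and 156 CPM in the HFD group and 213, 309 and 296 CPM in the HTG group. The summed log2 fold change was 0.70 (SE 0.21, interval 0.22 to 1.18), with an unadjusted p of 0.00971 and an adjusted p of 0.0963 in edgeR. Fitted alone Pisd was near 0, and summed with these rows it was above 0, and how the counting divided reads among them is not given in the sources used here.

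Lpcat3 (ENSMUSG00000004270, chr6:124639990-124681381, plus strand) reacylates lysophosphatidylcholine with polyunsaturated fatty acids. It measured 86.1, 122 and 138 CPM in the HFD libraries and 89.8, 107 and 76.0 CPM in the HTG libraries, and the groups overlapped. The difference was -0.34 on the log2 scale (SE 0.23, interval -0.87 to 0.19), with an unadjusted p of 0.175 and an adjusted p of 0.397 in edgeR. Its row overlaps that of Emg1 by 334 bases on the opposite strand.

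Ratios between genes of the same library do not depend on the scaling between libraries, and 5 were compared. The FPKM of Pcyt2 was 17.2, 16.1 and 14.3 times that of Pcyt1a in HFD libraries 1 to 3, and 34.2, 55.8 and 44.7 times that in HTG libraries 1 to 3, a log2 difference of 1.48 (2.78-fold). Every HTG library was above every HFD library in this ratio of ethanolamine-activating to choline-activating enzyme RNA. Pemt to Pcyt1a, the methylation route set against the CDP-choline route, was 11.5, 9.97 and 11.5 in the HFD group, beside 17.5, 17.9 and 21.97 in the HTG group, a log2 difference of 0.79 (1.73-fold).

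Cept1 to Chpt1 was 0.814, 0.748 and 0.904 in the HFD group, beside 1.08, 1.26 and 1.33 in the HTG group, so Chpt1 had the higher FPKM in all HFD libraries and Cept1 in all HTG libraries (log2 difference 0.57). Ptdss2 to Ptdss1 was 0.221, 0.153 and 0.210 against 0.232, 0.386 and 0.279, with the groups only just apart (log2 difference 0.61). Pisd to Pcyt2, the mitochondrial against the CDP-ethanolamine source of phosphatidylethanolamine, was 0.0372, 0.0454 and 0.0466 against 0.0290, 0.0348 and 0.0336, a log2 difference of -0.41. That ratio used the Pisd row alone, without its pseudogene rows. None of the 5 ratios overlapped between the groups. The pairs were chosen with earlier results of these data known, so their lack of overlap is not independent support. How often other gene pairs fail to overlap was not computed. Among single genes, 16.5% did not overlap in the higher and 15.5% in the lower direction by CPM. Each had a two-sided exact permutation p of 0.1, also 0.1 after adjustment over the 5, which is the smallest that 3 libraries against 3 allow, so the design could not reach 0.05 for a ratio. The ratios that share Pcyt1a or Pcyt2 are not independent of each other.

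**Figure D3:**
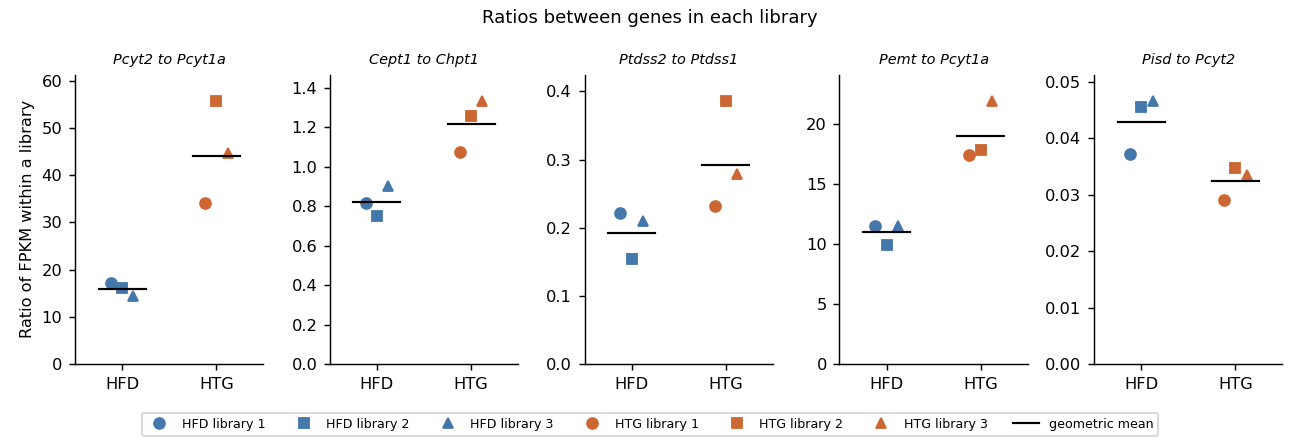
Ratio of the FPKM of 2 genes within each library for the 5 pairs, with bars at the geometric mean of each group (3 libraries per group, axes from 0). Pcyt2 to Pcyt1a lies between 14.3 and 17.2 in the HFD group and between 34.2 and 55.8 in the HTG group, and no pair overlaps between the groups. The pairs were chosen with earlier results of these data known.

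The other genes of the pathway were taken from 6 lists of 67 genes, of which 65 were tested. In edgeR, 3 of the 65 had an unadjusted p under 0.05 and a higher level in the HTG group, and 22 a lower one, beside the 12.3% and 12.4% of all genes given above, and the median log2 fold change was -0.36. At an adjusted p under 0.05, edgeR called 0 of the 65, and DESeq2 called 2 higher and 15 lower, beside 6.29% and 7.55% of all genes. The count of 25 at an unadjusted p under 0.05 was 15 without HTG library 2 and 14 without HTG library 3. Of these 25 genes, 12 had an unadjusted p under 0.05 whichever library was left out, and 13 were above it without at least 1 library. Taz of the cardiolipin branch had no row under that symbol, and Mboat2 did not pass the filter.

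Of the 11 other genes of the CDP-choline and CDP-ethanolamine pathways, 2 were higher in the HTG group by that p, 3 lower and 6 neither. Over all genes tested, 12.3% were higher and 12.4% lower by that p. Chkb, which encodes the beta form of choline kinase, was higher in the HTG group, at 40.9, 59.4 and 30.7 CPM in the HFD libraries and 88.9, 93.6 and 75.6 CPM in the HTG libraries (log2 fold change 0.98, unadjusted p 0.00431, adjusted p 0.0723 in edgeR). Etnk2, an ethanolamine kinase and so the step before Pcyt2, was lower, at 380, 450 and 404 against 202, 253 and 192 CPM (-0.93, unadjusted p 0.00151, adjusted p 0.0605 in edgeR). Both had groups that did not overlap and an unadjusted p under 0.05 in all 17 alternatives.

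Etnppl, which breaks down phosphoethanolamine, measured 55.5, 249 and 48.9 CPM in the HFD libraries and 45.1, 29.9 and 12.3 CPM in the HTG libraries (log2 fold change -2.02, unadjusted p 0.0189 in edgeR). Phospho1, a phosphatase of phosphoethanolamine and phosphocholine, measured 0.969, 9.63 and 1.11 against 1.12, 0.246 and 0.363 CPM (-2.75, unadjusted p 0.0232 in edgeR). HFD library 2 was far above the others for both genes, and without it the log2 fold change was -0.85 for each, with unadjusted p-values of 0.103 and 0.263 in edgeR. The choline transporter-like gene Slc44a2, named after its values were seen, had a log2 fold change of 0.52 (unadjusted p 0.0236 in edgeR), which was 0.37 without HTG library 2 (0.101).

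The 11 methyl donor and choline oxidation genes make, use or recycle methyl groups around S-adenosylmethionine, the donor that PEMT uses. By the unadjusted p in edgeR, 7 of these were lower in the HTG group (12.4% of all genes tested were), 0 higher (12.3%) and 4 neither, the median log2 fold change was -0.82, and DESeq2 called the same number, 7, lower at an adjusted p under 0.05 (7.55% of all genes). Gnmt, which uses S-adenosylmethionine to methylate glycine, measured 1299, 1494 and 1589.5 CPM in the HFD libraries and 731, 287 and 409 CPM in the HTG libraries. Its log2 fold change of -1.62 (SE 0.35) had an unadjusted p of 0.00145 and an adjusted p of 0.0605 in edgeR. Mat2a, an S-adenosylmethionine synthetase subunit, was lower by a log2 fold change of -0.61 (unadjusted p 0.0061 in edgeR).

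Dmgdh and Sardh, the mitochondrial dehydrogenases of dimethylglycine and sarcosine, had log2 fold changes of -0.85 and -0.87 (unadjusted p 0.0105 and 0.0119 in edgeR). The other 3, named after their values were seen, were Mat1a, the main S-adenosylmethionine synthetase of liver (-0.94), Ahcy, which hydrolyses the spent methyl donor (-0.82), and Aldh7a1, which oxidises betaine aldehyde (-0.63). Their unadjusted p-values in edgeR were 0.0275, 0.0248 and 0.013. Without HFD library 2 that of Mat1a was 0.105. Without HTG library 3 those of Ahcy, Aldh7a1 and Sardh were 0.0962, 0.0557 and 0.0535. The interval of Pemt itself, -0.76 to 0.28, included 0, and its difference from these genes was not tested. The summed hepatocyte markers, a sum made up mostly of Alb, were also lower in the HTG libraries, as given above. Their part in these values was not tested.

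**Figure D4:**
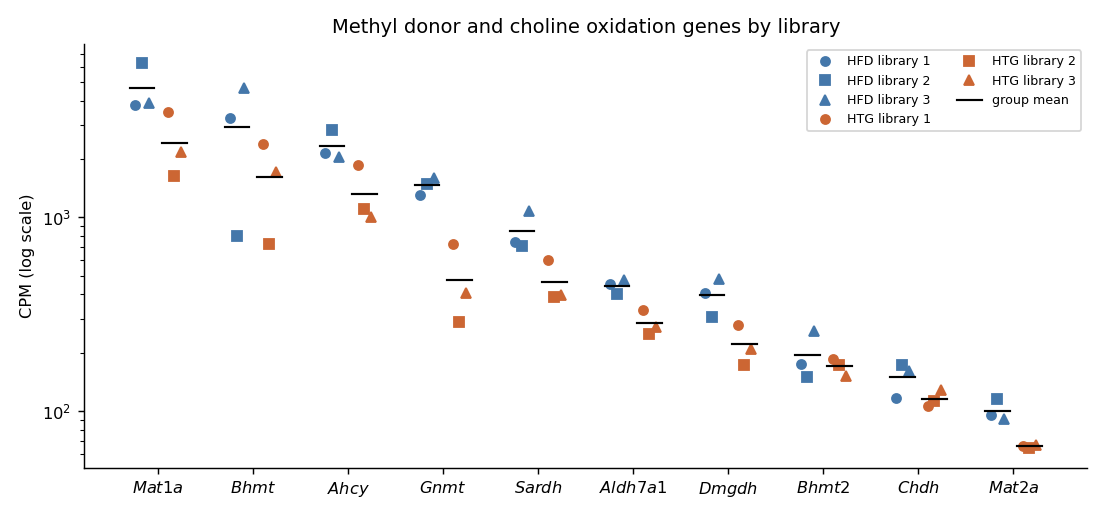
CPM (log axis) of 10 methyl donor and choline oxidation genes in each library, with bars at the group means. The HTG points of 7 genes, among them Gnmt (287 to 731 against 1299 to 1589.5 in the HFD group) and Mat2a, lie below all their HFD points, while Bhmt, Bhmt2 and Chdh overlap between the groups.

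Acyl-chain remodelling was covered by 12 further tested genes, with a median log2 fold change of -0.12. At an unadjusted p under 0.05 in edgeR, none had a higher level (12.3% of all genes) and 3 a lower one (12.4%). They were Lpcat1, a lysophosphatidylcholine acyltransferase (-1.04, unadjusted p 0.0054), Pla2g4a, the cytosolic phospholipase A2 that releases arachidonic acid (-1.13, 0.011), and Mboat7, which remodels phosphatidylinositol (-0.45, 0.0425), and which was -0.30 without HTG library 2 (0.14). Lpcat1 and Pla2g4a were low, at no more than 3.91 CPM in any library. Of the 7 genes of the CDP-diacylglycerol branch tested, 0 were higher and 2 lower, beside the same 12.3% and 12.4%, with a median of -0.36. The 2 were Cds2, which makes CDP-diacylglycerol (-0.64, unadjusted p 0.00573 in edgeR), and Cdipt, which makes phosphatidylinositol from it (-0.46, 0.0259). Without HTG library 2 the unadjusted p of Cdipt was 0.0912 in edgeR.

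Of the 12 phospholipid breakdown genes, 1 was higher and 2 lower, beside 12.3% and 12.4% of all genes tested, with a median of -0.05. Pnpla6, a lysophospholipase of the endoplasmic reticulum, was higher in the HTG group, at 36.2, 31.9 and 31.3 CPM in the HFD libraries and 50.03, 55.4 and 61.4 CPM in the HTG libraries (log2 fold change 0.75, unadjusted p 0.00157, adjusted p 0.0605 in edgeR). Pnpla8, a calcium-independent phospholipase A2 of mitochondria and peroxisomes, was lower, at 82.5, 141 and 85.3 against 52.0, 36.2 and 40.8 CPM (-1.26, unadjusted p 0.00111, adjusted p 0.0585 in edgeR). Abhd4, a lysophospholipase acting on N-acyl phosphatidylethanolamines, had a log2 fold change of -0.48 (unadjusted p 0.0104 in edgeR).

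Among the 12 transport and secretion genes, 5 were lower in the HTG group (12.4% of all genes tested were) and 0 higher (12.3%) by the same edgeR p. Their median log2 fold change was -0.28. Mttp, which loads lipid onto apolipoprotein B, measured 149, 237 and 248 CPM in the HFD libraries and 133, 77.9 and 104 CPM in the HTG libraries (-1.01, unadjusted p 0.00596, adjusted p 0.0818 in edgeR). Stard7 (-0.56) and Pctp (-0.87), which carry phosphatidylcholine between membranes, and Prelid3b (-0.51) had unadjusted p-values of 0.014, 0.0237 and 0.0243 in edgeR. The unadjusted p of Stard7 was 0.0737 without HTG library 3, and that of Prelid3b 0.0782 without HTG library 2, both in edgeR. The groups of Pctp overlapped, and without HFD library 3 its log2 fold change was -0.53 (unadjusted p 0.0974 in edgeR). Abcb4, the canalicular exporter of phosphatidylcholine into bile, named after its values were seen, measured 166, 390 and 173 against 153, 129 and 116 CPM. Its log2 fold change was -0.87 (unadjusted p 0.0338 in edgeR), and -0.36 without HFD library 2 (unadjusted p 0.134).

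**Figure D5:**
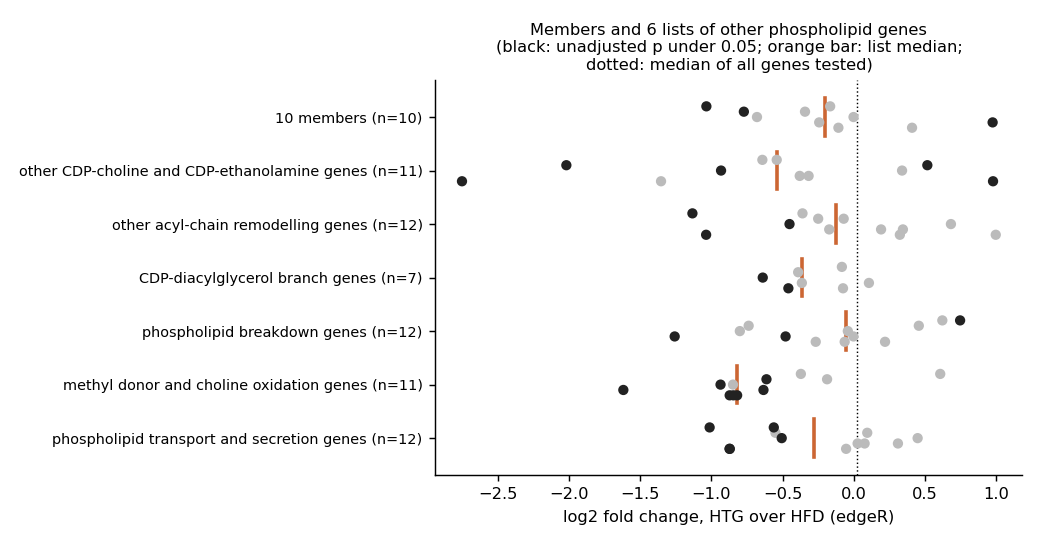
Log2 fold change, HTG over HFD, of the 10 genes and of the genes tested in the 6 other lists (points, black at an unadjusted p under 0.05 in edgeR), with an orange bar at each list's median and a dotted line at 0.03, the median of all genes tested. The medians run from -0.82 for the methyl donor and choline oxidation genes to -0.05 for the phospholipid breakdown genes, and the 10 genes have -0.20.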

How the data were processed

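Liver RNA of 6 libraries, 3 HFD and 3 HTG, was analysed, grouped by their labels. Poly(A) RNA had been made into strand-marked, paired-end libraries. For each gene and library the authors deposited a whole-number estimated count, with no scaling between libraries. They also deposited the FPKM, scaled by transcript length and library. The submitters' processing notes name HISAT2, StringTie, SAMtools and the rat build mRatBN7.2, without versions. The gene rows are mouse Ensembl identifiers, and the build behind their coordinates is not given in the sources used here. Sequences supplied for reference were of rat and were not used here. GO and KEGG names are those of the table.

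The main test was edgeR 4.0.16 (TMM, filterByExpr, glmQLFit and glmQLFTest, R 4.3.3) on the estimated counts, with group as the only term, adjusted by Benjamini-Hochberg over all 18455 genes. Only ratios were tested by an exact permutation test (SciPy 1.17.1). The edgeR p-values set each group difference against the spread between libraries, which edgeR estimates with information shared across genes. Counting precision is limited by the totals of 50648778 to 90563477 counts. The script was tested on simulated data. The 17 alternatives were DESeq2 1.42.0, other filters and scalings, mitochondrial rows removed, counts divided by 4, a replicate block, each library left out in turn, and limma 3.58.1 on log2(FPKM + 0.1) or log2(FPKM + 1), with the mean FPKM required to reach 1 or with no such filter. Summing Pisd with its pseudogene rows was added after the data were seen.

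The 10 genes, the lists and the ratios were chosen with earlier results of these data known. All 10 genes are named, with up to 4 genes per list at the smallest unadjusted p under 0.05, and the 5 smallest of the table's KEGG entry outside the lists. The values of 1 listed gene are not reported here. Other genes named after their values were seen are marked as such.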

Additional observations from a re-analysis of the deposited data

How the results depend on the processing

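The number of genes called at an adjusted p under 0.05 depended on the setting. It was 2 in edgeR, 2401 with DESeq2, 162 with no filter, 684 with at least 10 counts in every library, 14 with the mitochondrial rows removed, 822 with counts divided by 4, 878 with limma on log2(FPKM + 0.1), 884 with log2(FPKM + 1), and 0 with limma without the filter, where 4996 had an unadjusted p under 0.05. Leaving out each library in turn gave 0 to 653, with 3086 to 4958 at an unadjusted p under 0.05. Deviations of same-numbered libraries from their group means correlated at -0.13, -0.113 and 0.189, and those of differently numbered libraries at -0.193 to 0.29. With 3 libraries per group these values cannot settle whether the replicate numbers paired the samples. With the number as a replicate block, edgeR called 0 genes (3867 at an unadjusted p under 0.05), and 2 of the 10 genes, Pcyt1a and Ptdss1, kept an unadjusted p under 0.05, while that of Chka was 0.107. Between 1 and 3 of the 10 genes and between 14 and 30 of the 65 other pathway genes had an unadjusted p under 0.05 when each library was left out.

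The fitted difference of Pisd, near 0, changed sign to 0.0076 with at least 10 counts in every library, 0.039 with upper-quartile scaling, 0.014 with counts divided by 4, 0.0052 with the block and 0.70 with the pseudogene rows summed. It ranged from -0.11 to 0.10 with each library left out, and Cept1 from -0.36 to 0.21. No other gene named from the lists and none of the ratios changed direction under the alternatives run, and the cause of these shifts was not tested. The Pisd to Pcyt2 ratio used the Pisd row alone and was not computed with the pseudogene rows summed. With 3 libraries per group, the 95% intervals of the 7 genes with an unadjusted p above 0.05 still admit differences as large as -1.53 for Chpt1 and 0.85 for Pcyt2.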

Other observations

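The table's KEGG entry for glycerophospholipid metabolism held 91 rows, of which 79 were tested, and at an unadjusted p under 0.05 in edgeR 7 had higher and 18 had lower levels in the HTG group, beside 12.3% and 12.4% of all genes tested. Of these rows, 39 tested genes lay outside the 10 genes and the 6 lists, and 4 of them were higher and 8 lower by that p. Lpin1, a phosphatidate phosphatase that makes the diacylglycerol used by Chpt1 and Cept1, measured 109, 115 and 161 CPM in HFD libraries 1, 2 and 3 and 26.0, 42.1 and 47.8 CPM in the same libraries of the HTG group. The log2 fold change was -1.73 (SE 0.27), with an unadjusted p of 0.000188 and an adjusted p of 0.0538 in edgeR. Plpp3, a lipid phosphate phosphatase of the plasma membrane (-0.90), Lclat1, a cardiolipin-remodelling acyltransferase (-0.90), and Gpd1l, a relative of glycerol-3-phosphate dehydrogenase (-0.75), were lower with unadjusted p-values of 0.00179, 0.00209 and 0.00324 in edgeR. Dgka, a diacylglycerol kinase, was higher (0.80, unadjusted p 0.00274 in edgeR). The groups did not overlap in any of these 5 genes, as in 16.5% of all genes in the higher and 15.5% in the lower direction.

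Of the 18 genes that the table annotates to phosphatidylcholine biosynthesis in GO, by the same p 4 were higher and 4 lower. Of the 11 tested for phosphatidylethanolamine biosynthesis, 2 were higher and 1 lower, beside the same 12.3% and 12.4% of all genes.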
